A study of Mus musculus with 4 samples.

Results

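The regions described here are 1863 broad accessible regions of the aorta that were called as peaks in male VEDS mice and overlapped no peak of either control library. They were chosen by measured values. A peak of the VEDS male list on chr1-19 was taken when it was at least 400 bp wide, had at most 50% of its bases in lower case (repeat-masked) in the reference genome, and shared not even 1 bp with a peak of the control female or control male list. Of 41444 peaks in the VEDS male list, 40483 lay on chr1-19, 12595 of these were at least 400 bp wide and 663 of the wide peaks were more than 50% masked. Among the remaining 11932 peaks, 1863 had no control overlap, which is 15.6% of them, beside 52.0% of all VEDS male peaks on chr1-19. The other 10069, of the same minimum width and masking but overlapping a control peak, are the shared peaks with which the regions are compared. The absence of a control peak, the width and the masked share are therefore properties of the selection, and they are given below as description, with no test.

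In ATAC-seq, the Tn5 transposase cuts and tags DNA where it is not wrapped in nucleosomes, so that reads pile up over open chromatin. Accessible regions of a tissue are mainly of a pair of kinds. Promoters at CpG-rich start sites are open in nearly all cells, while enhancers in introns and between genes are open in particular cell types and often carry sites for lineage factors, such as MEF2 and SRF in smooth muscle, or for the AP-1 factors JUN and FOS.

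Aortic nuclei came from 60-day-old mice of 2 genotypes, Col3a1+/+ (control) and Col3a1G938D/+ (VEDS, a heterozygous glycine substitution in type III collagen that models vascular Ehlers-Danlos syndrome), and no group was drug treated. Each genotype had 1 female and 1 male library, each pooling the aortas of 2 mice, and a single-cell ATAC kit was used but the reads were analyzed in aggregate, so cell types were not separated. The lists differed in length, with 21176 peaks in control females, 1236 in control males, 504 in VEDS females and 41444 in VEDS males. The median pileup at a summit (the number of fragments or extended cut sites the caller counted there, recovered from the deposited values) was 14, 7, 6 and 22 in the same order.

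Nearly all of the control information came from 1 library. Of the shared peaks, 10055 overlapped a control female peak and 316 a control male peak, and 14 overlapped the control male list alone. Without the control female list, 11616 of the 11932 peaks would have had no control overlap, and without the control male list 1877. Genotype, sex and depth cannot be told apart in these lists, since the VEDS male library was the deepest and the only long control list was female. With 2 libraries per genotype, the smallest 2-sided p that an exact permutation test allows is 0.333, so no test between genotypes was made. Shares are given with 95% Wilson intervals and medians with 95% intervals from the order of the values, and both cover counting error only.

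Sequences of the GRCm38 (mm10) reference are shown as examples of 3 kinds of region, namely repeated sequence, distal elements and promoters. Repeated sequence, as measured below, was the least common, in 110 of the 1863 regions (5.9%). Of all regions, 1038 lay farther than 3 kb from a transcription start site and 825 within 3 kb. The kinds overlap, since 17 of the 110 repeated regions lay within 3 kb. The kinds and the Mcfd2 example were chosen after the values were seen. A gene named beside a distal region is the one with the nearest protein-coding start site, which need not be the gene the region lies in or acts on. The region of highest −log10 q lay between genes, 44175 bp from the start of Ccr1, a chemokine receptor gene of leukocytes, at chr9:123924460-123925033. The 200 bases around its summit (chr9:123924417-123924616, plus strand) repeat a short unit, with the most frequent 12-base word in capitals.
Ccr1 summit: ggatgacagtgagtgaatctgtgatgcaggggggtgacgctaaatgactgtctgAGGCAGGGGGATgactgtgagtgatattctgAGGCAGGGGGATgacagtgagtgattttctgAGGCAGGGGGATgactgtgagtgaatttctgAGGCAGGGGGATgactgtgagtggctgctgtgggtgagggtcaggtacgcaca
The same word occurred 6 times in the 300-bp window around the summit, at steps of 31 or 62 bases. A weaker region of this kind, 56318 bp from the start site of Mcfd2, shows the pattern more plainly (chr17:87208880-87209079, plus strand).
Mcfd2 summit: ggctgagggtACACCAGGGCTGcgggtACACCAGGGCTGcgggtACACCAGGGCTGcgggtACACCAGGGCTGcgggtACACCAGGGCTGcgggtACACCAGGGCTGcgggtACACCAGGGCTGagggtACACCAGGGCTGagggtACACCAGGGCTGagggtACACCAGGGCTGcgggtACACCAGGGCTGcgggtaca
Its unit returned every 17 bases, 17 times in 300 bp, in a region 632 bp wide with a pileup of 9. None of its bases were in lower case in the reference, so the limit on masking did not remove it.

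Regions between and within genes without such repeats were the second kind, and 2 of the 3 strongest regions away from start sites belonged to it. In the first of these the summit lay 52293 bp from the start of Hddc2 (chr10:31260990-31261189), and in the other it lay in an intron of Ago2 (chr15:73154712-73154911), the Argonaute protein that cleaves microRNA targets. Both windows are given on the plus strand, with CpG dinucleotides in capitals.
Hddc2 summit: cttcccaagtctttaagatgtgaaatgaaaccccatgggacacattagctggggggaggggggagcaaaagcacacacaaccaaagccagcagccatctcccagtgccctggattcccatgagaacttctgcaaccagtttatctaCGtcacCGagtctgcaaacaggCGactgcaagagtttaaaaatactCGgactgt
Ago2 summit: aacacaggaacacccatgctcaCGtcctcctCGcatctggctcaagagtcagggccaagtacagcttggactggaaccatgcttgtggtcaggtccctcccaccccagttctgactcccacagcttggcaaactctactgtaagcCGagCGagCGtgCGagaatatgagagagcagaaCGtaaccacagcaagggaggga
The Hddc2 window held 4 CpG dinucleotides in 200 bases and the Ago2 window 7.

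Promoters were the third kind. The 120 bases before the start site are shown, in the direction of the gene, for Srp68 (chr11:116274218-116274337, minus strand), which encodes a subunit of the signal recognition particle, and for Abhd16a (chr17:35089143-35089262, plus strand), which encodes a phospholipase. CpG dinucleotides are again in capitals.
Srp68 promoter: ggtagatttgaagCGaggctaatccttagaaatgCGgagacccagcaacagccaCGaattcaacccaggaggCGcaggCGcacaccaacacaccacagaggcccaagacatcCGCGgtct
Abhd16a promoter: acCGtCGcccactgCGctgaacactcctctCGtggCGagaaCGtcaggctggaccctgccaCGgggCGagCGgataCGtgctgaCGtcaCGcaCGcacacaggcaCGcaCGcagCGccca
The Srp68 promoter held 7 CpG in 120 bases and the Abhd16a promoter 16, among them the CRE, the consensus TGACGTCA of cAMP response factors.

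The regions were weaker peaks than the shared ones. Their pileup ranged from 7 to 90, with a median of 20 (95% interval 20 to 21, quartiles 15 and 27), while the shared peaks had a median of 46 (interval 46 to 47, quartiles 32 and 65). By fold enrichment, the ratio to the background that the caller estimated nearby, the median was 6.39 (quartiles 5.18 and 7.88) in the regions and 10.5 (8.14 and 13.2) in the shared peaks. By −log10 q, the medians were 10.3 and 32.0. Ranked among all VEDS male peaks, the regions had a median rank of 21966 and the shared peaks 6940. Widths differed less, with a median of 488 bp (quartiles 435 and 572) against 548 bp (467 and 666).

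The share of peaks without control overlap fell at each step of pileup. It was 81.1% (116 of 143, interval 73.9 to 86.7) at a pileup of up to 10, 50.4% (449 of 891) from 16 to 20, 24.2% (264 of 1091) from 26 to 30 and 2.85% (50 of 1754) from 41 to 50. Above 50 there were 12 regions, of which 11 had a pileup up to 70 and 1, near Ccr1, had 90. None of the 347 peaks with a pileup over 100 lacked a control peak, where a count of 0 allows up to 1.09%. The plot of shares by peak height shows this decline.

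**Figure D1:**
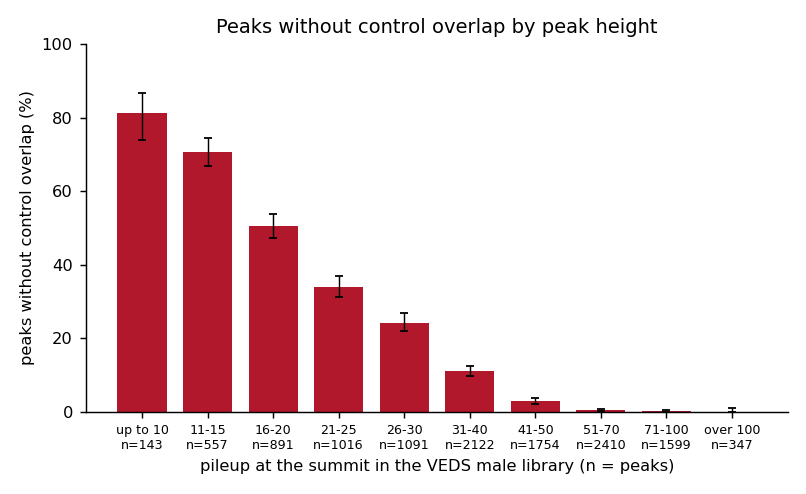
Share of broad, mostly unmasked VEDS male peaks on chr1-19 that overlapped no control peak (y axis, percent), in bins of the pileup at the summit (x axis, with the number of peaks in each bin). Bars are shares and lines are 95% Wilson intervals; the share falls from 81.1% in the lowest bin to 0 in the highest.

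At 10053 shared peaks with a control female peak and a recovered pileup in both, the control female pileup was a median of 0.395 times that of VEDS males (quartiles 0.333 and 0.465). Sites without a control female peak could not enter this ratio, so it may not hold at the regions. Multiplied by this ratio, the pileup of the regions had a median of 7.91. The product was below 5, the lowest pileup of any control female peak, in 252 regions. It reached 10, the lower quartile of the control female list, in 559 regions, and 14, its median, in 149 (8.0%). In the opposite direction, 9 of 3682 control female peaks of the same width and masking overlapped no VEDS male peak (0.244%, interval 0.129 to 0.464), and their pileup was between 6 and 11.

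Peaks on either side of each limit of the selection are given as description. Of VEDS male peaks on chr1-19 that were at most 50% masked and had no control overlap, 14 were exactly 400 bp wide and 19 were 399 bp wide. The first of the 400-bp regions lay 11920 bp upstream of Col3a1, the gene that carries the VEDS substitution, with a pileup of 11 and a −log10 q of 5.15. Others of 400 bp were intronic and nearest to Fam129a and Ccdc57, each with a pileup of 23, and peaks of 399 bp near Ube2u, Chd9 and 1700018B08Rik had pileups of 18, 21 and 17. By masked share, the last regions inside were near Tcf7l1 (48.5%), Man1a2 (49.2%) and Abr (49.3%), with pileups of 15, 13 and 13, and the first peaks outside were near Gm10715 (50.2%), Sfi1 (51.1%) and Syne2 (51.3%), with pileups of 17, 30 and 28. By position, the closest control peak was 5 bp and 16 bp away at 2 regions nearest to Foxp1, a forkhead factor gene, and 17 bp away near Fry. The shared peaks that overlapped least did so by 3 bp at Dtnb, 9 bp at Klhdc8b and 9 bp at Zwilch.

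Most regions were more than 10000 bp from any control peak. The median distance was 16988 bp (quartiles 6825.5 and 44743.5 bp), with 83 regions within 500 bp (4.46%), 338 within 5000 bp (18.1%) and 663 within 10000 bp (35.6%). Among the regions far from control peaks, 1 at the promoter of Trps1, a GATA-type zinc finger repressor of skeletal and hair development, had its nearest control peak at 869423 bp.

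The 10 regions of highest −log10 q included 7 at promoters. After the Ccr1 region (−log10 q 83.1, pileup 90, nearest control peak 72271 bp away) came the promoter of Srp68 (56.7, pileup 61, control peak 32024 bp away). The promoter of Bola1, a mitochondrial protein of the BolA family, followed at 49.4 with a pileup of 59, and that of 2610001J05Rik at 47.9 with a pileup of 46. The promoter of Abhd16a had a −log10 q of 43.1, the Hddc2 region 41.9 and the promoter of Psmd14, a deubiquitinase of the proteasome lid, 41.2. The Ago2 intron (40.1) and the promoters of Fam214a (39.9) and Lrrc47 (39.8) completed the 10. By the selection none of them overlapped a control peak, and the nearest control peak was between 5356 bp (Fam214a) and 192942 bp (2610001J05Rik) away. The VEDS female list, which overlapped only 1.02% of all VEDS male peaks on chr1-19, had no peak at these regions. These 10 windows had no copy elsewhere in the genome, and the Ccr1 window was the only one with an internal repeat.

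Close to start sites, the regions were fewer than shared peaks were. Within 3 kb of a transcription start site (TSS) lay 825 regions, or 44.3% (interval 42 to 46.5), against 6786 shared peaks, or 67.4% (66.5 to 68.3). A TSS fell inside the peak in 27.3% of the regions and in 57.3% of the shared peaks. By annotation, 36.3% of the regions were promoters within 1 kb of a TSS (shared peaks 62.8%), 29.3% were in introns (15.7%) and 22.5% were intergenic (15%). Exons held 2.42% of the regions and 1.1% of the shared peaks, and 3′ UTRs 1.29% and 0.596%. Over all VEDS male peaks on chr1-19 the same shares were 37.9% at promoters within 1 kb, 28.2% in introns and 22.3% intergenic, close to those of the regions.

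**Figure D2:**
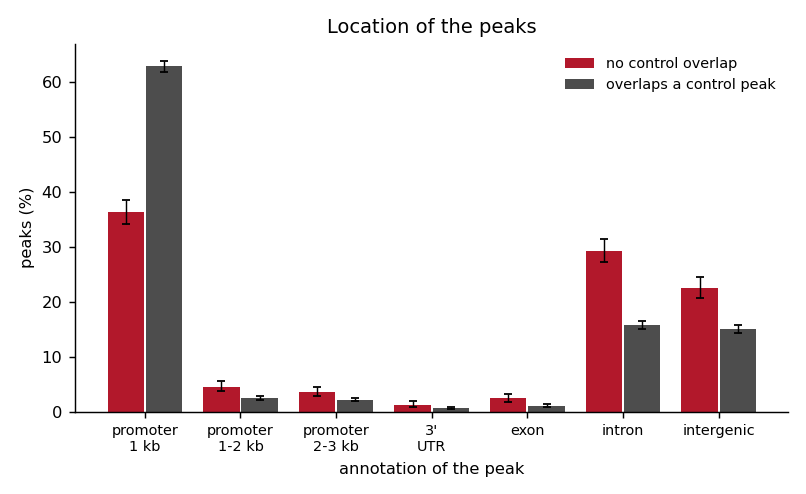
Annotation of the 1863 regions without control overlap (red) and the 10069 shared peaks (grey), as a percent of each set (y axis), with 95% Wilson intervals. Promoters within 1 kb hold 36.3% of the regions and 62.8% of the shared peaks; 5′ UTR and downstream peaks, under 1% of each set, are not drawn.

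Within bands of peak strength the difference in location was small. At a −log10 q over 5 and up to 10, 37.3% of 668 regions (interval 33.7 to 41.0) and 38.9% of 458 shared peaks (34.5 to 43.4) were within 3 kb of a TSS. From 10 to 15 the shares were 47.5% of 469 and 45.6% of 866, from 15 to 20 they were 51.9% of 258 and 53.4% of 1092, and from 20 to 40 they were 60.9% of 230 and 64.1% of 3937. The intervals overlapped in each of these 4 bands. In both sets the share rose with −log10 q. The bounds of the bands were set after seeing the data.

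GC content followed the same course. The median GC of the 300-bp windows was 52.0% in the regions (interval 51.7 to 52.3) and 58.7% in the shared peaks (58.3 to 59.0). In the band from 10 to 15 the medians were 52.3% and 52.0%, and from 15 to 20 they were 53.5% and 54.7%. From 20 to 40 the regions were lower, at 55.8% (53.7 to 57) against 57.7% (57.3 to 58.0), without overlap of the intervals. At up to 5 the interval of the regions was 49.0 to 51.0 and that of the shared peaks, with a median of 47.3%, was 46.0 to 49.7.

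**Figure D3:**
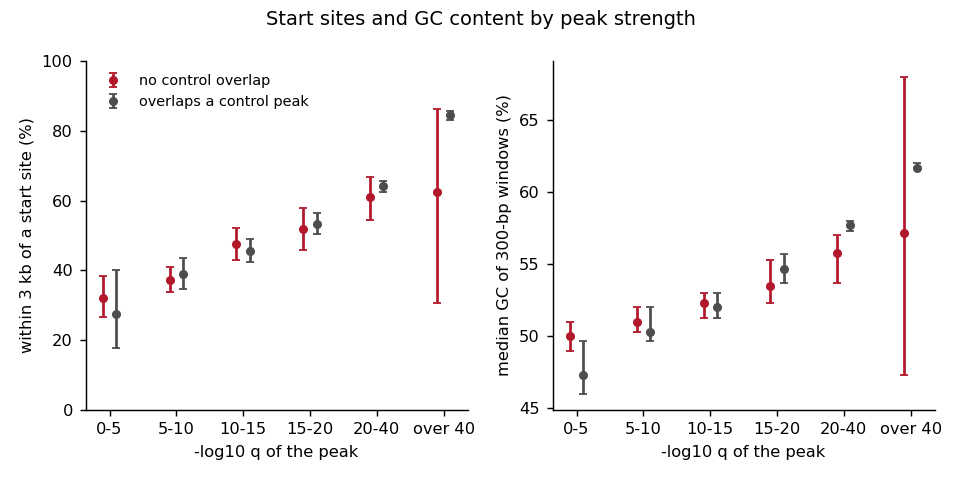
Left, share of peaks within 3 kb of a TSS (y axis, percent, with 95% Wilson intervals), and right, median GC of 300-bp summit windows (y axis, percent, with 95% intervals), in bands of −log10 q (x axis) for regions without control overlap (red) and shared peaks (grey). Both measures rise with −log10 q in both sets, and the band over 40 holds only 8 regions.

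The CpG content of promoter regions was lower than that of shared promoters, by an amount that varied with peak strength. Within 3 kb of a TSS, the ratio of observed to expected CpG had a median of 0.571 in the regions and 0.793 in the shared peaks. At a −log10 q over 5 and up to 20 it was 0.542 (interval 0.49 to 0.596) in 606 regions and 0.705 (0.676 to 0.731) in 1156 shared peaks, although the shared peaks were stronger within that band too, with a median −log10 q of 15.1 against 11.2. In narrower bands the regions had the lower median each time, but most intervals overlapped. The medians were 0.491 (0.421 to 0.543) and 0.597 (0.49 to 0.694) from 5 to 10, and 0.538 (0.432 to 0.624) and 0.667 (0.597 to 0.707) from 10 to 15. From 15 to 20 they were 0.639 (0.575 to 0.712) and 0.756 (0.725 to 0.79), without overlap, and from 20 to 40 they were 0.756 (0.692 to 0.811) and 0.785 (0.774 to 0.798). The narrower bands were added after seeing the data. Away from start sites the ratios were 0.227 and 0.246. The SP/KLF word GGGCGGGG, bound by SP1 and Krüppel-like factors at CpG-rich promoters, occurred in 17.2% of those 606 windows (14.4 to 20.4) and 25.7% of the 1156 (23.3 to 28.3), beside 19.2% of all unmasked VEDS male windows within 3 kb of a TSS in that band.

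By nearest protein-coding TSS, 677 regions lay within 3 kb of 665 genes. For 427 of these genes, no VEDS male peak of any width assigned to the gene within 3 kb of its start sites overlapped a control peak. Each of the 665 genes was picked because it held a region without control overlap. The same share over all coding genes is not given here, and 52.0% of all VEDS male peaks on chr1-19 had no control overlap. The strongest regions at the 427 genes, after those already named, were the following. The promoter of Rttn, a centriole protein, had a −log10 q of 38.9. The promoter of Ranbp6, of the importin family, had 38.2 and that of Brd3, a bromodomain reader of acetylated histones, 37.9. Dgcr6 had 37.9 and Zfp689 36.1. The promoter of Naa20, the catalytic subunit of an N-terminal acetyltransferase, had 35.2, Sem1, a proteasome subunit, 34.3, and Ndufa9, a subunit of respiratory complex I, 34.2. Their pileups were between 35 and 57. The promoters after the first 10 regions were chosen for naming after their values were seen.

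Internal repeats were more frequent in the regions than in shared peaks. A window was counted as repeated when any 12-base word occurred at least 4 times in its 300 bases, a measure chosen after seeing the data. This held in 110 regions (5.9%, interval 4.92 to 7.07) and 120 shared peaks (1.19%, 0.998 to 1.42). At a −log10 q of up to 10 the shares were 10.8% of 898 (8.94 to 13.0) and 6.78% of 516 (4.92 to 9.29), with intervals that overlapped, and from 10 to 20 they were 1.51% and 1.53%. The repeated regions had a median pileup of 12, a median masked share of 0.0%, and 15.5% of them were within 3 kb of a TSS. A pileup above 30 was seen in 2 of them, the Ccr1 region and a region 2643 bp from the start of Usp54 with a pileup of 38.

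The widest regions were flat and low. The 46 regions of at least 1000 bp had a median pileup of 12.5, and 37 of them had a pileup of 15 or less, while 39 were farther than 3 kb from a TSS. Internal repeats were found in 20 of the 46 (43.5%, interval 30.2 to 57.8), against 27 of 303 shared peaks of that width (8.91%, 6.2 to 12.7) and 33 of 1004 regions from 400 to 499 bp (3.29%). Of the 5 widest, 4 are named here, which were between 1947 and 1990 bp wide, intergenic and nearest to Mex3c, Dnah11, Gpam and Got2, with pileups of 14, 12, 12 and 9. Their summits lay between 15276 bp (Dnah11) and 279934 bp (Mex3c) from the coding start site. The median pileup of shared peaks from 1000 to 1499 bp was 59 and that of the regions 13. From 1500 bp up, shared peaks were low too, with a median of 19 in 39 peaks against 12 in 15 regions. The shares with internal repeats were not adjusted for pileup.

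**Figure D4:**
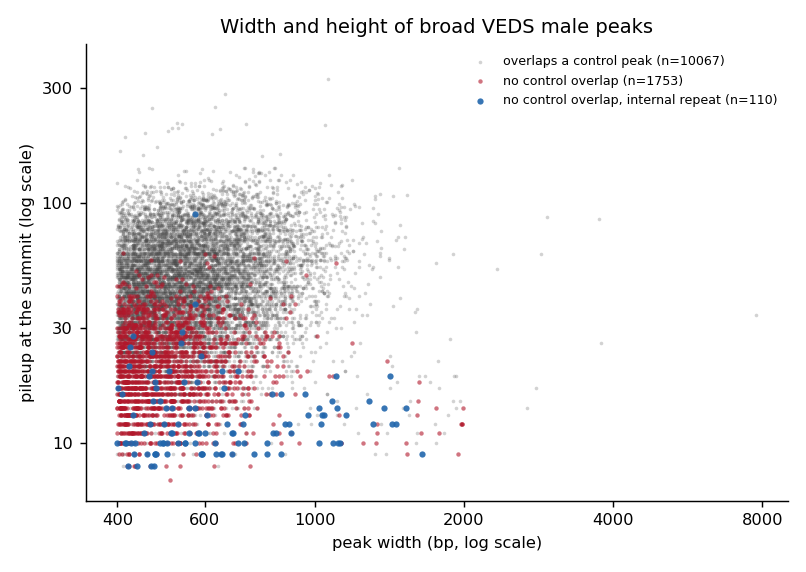
Width (x axis, bp, log scale) and pileup at the summit (y axis, log scale) of the broad VEDS male peaks, with 10067 shared peaks (grey), 1753 regions without control overlap and without an internal repeat (red) and 110 with one (blue). The grey points include 119 shared peaks with an internal repeat, which are not marked. The red points fill the low part of the range, and the blue points have a median pileup of 12, with the Ccr1 region at 90 and the Usp54 region at 38 above the rest.

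A near-identical copy elsewhere was less common. Of the regions, 41 (2.2%, interval 1.63 to 2.97) had a copy of the 300-bp window more than 10 kb away or on another chromosome, with at least 240 bases aligned at 95% identity, against 120 shared peaks (1.19%, 0.998 to 1.42). Reads of such windows could be placed at more than 1 position, and the values of those regions are uncertain. Zinc finger genes held several of the strongest, with the promoters of Zfp994 (−log10 q 34.0, 1 other copy), Zfp758 (25.6, 1 copy) and Zfp970 (23.4, 34 copies), and the promoter of Gm14391 had 24 copies (27.3). The 1-Mb window of chromosome 4 from 42000001 to 43000000 held 7 regions, as many as any other window, near Fam205a1, Gm10591, Gm13304, Gm13306, Gm21953 and Gm2564, and each of the 7 had between 4 and 8 other copies.

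Across the genome the regions were spread widely. The share of broad peaks without control overlap ran from 12.2% (115 of 940) on chromosome 11 to 19% (98 of 517) on chromosome 13. A further 3 windows of 1 Mb also held 7 regions. These lay near Lrrc47 and Prdm16 (chromosome 4, 154000001 to 155000000), Med13l and Tesc (chromosome 5, 118000001 to 119000000) and Irf2bp2, Tarbp1 and Tomm20 (chromosome 8, 126000001 to 127000000), and held 9, 4 and 23 shared peaks.

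The regions were shared out among many genes. By nearest protein-coding TSS they belonged to 1595 genes, or 7.68% of those on chr1-19, while 7274 genes (35.0%) had a shared peak of the same width. Of the genes with a region, 1376 had 1 and 182 had 2, and 1170 (73.4%) also had a VEDS male peak of some width that overlapped control. For peaks of any width the share over all coding genes is not given here, so 73.4% has no baseline. The most regions, 5 each, belonged to Irf2bp2, a transcriptional corepressor, and Rbms3, an RNA-binding protein. Irf2bp2 had 11 shared broad peaks and Rbms3 5, and in all 31 and 36 VEDS male peaks were assigned to them. The counts of regions were not adjusted for the number of peaks per gene. With 4 regions each followed Auts2, Frmd4a, Mecom (a zinc finger factor of blood and vessel development), Rora (a nuclear receptor of the clock), Smg6, Syne1 (nesprin-1 of the nuclear envelope), Ttc7b and Zfp704. The peaks assigned to these genes ran from 10 (Syne1) to 39 (Auts2). Of these, Syne1 had no shared broad peak, and its 4 regions had pileups between 11 and 32.

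Genes of the vessel wall held regions on either side of the set's upper quartile of pileup, 27, beside the 7.68% of all genes with a region. Of 50 extracellular matrix genes, 16 (32.0%) had a region and 31 a shared broad peak. The Fn1 region (fibronectin, 240620 bp from the start site) had a pileup of 29, the Igfbp7 region 30, the Postn region (periostin) 28 and the promoter of Loxl1, which crosslinks elastin, 50. A pair of intronic regions were nearest to Eln (elastin), 38809 and 60724 bp upstream, with pileups of 30 and 14, and the second held an internal repeat (Eln was chosen for naming after its values were seen). Of 34 smooth muscle contractile and regulator genes, 11 (32.4%) had a region and 31 a shared peak. These included Prdm16 (pileups 30 and 28), Mylk, the myosin light chain kinase (28), Mef2c (20) and Svil, supervillin (22). Of 32 adhesion genes, 10 (31.2%) had a region, led by Itgb3, the integrin beta 3 chain, with a pileup of 41 at the promoter. Another Itgb3 region, with a pileup of 47, overlapped an annotated exon. Its summit lay 13915 bp from a different annotated start site of the gene, and a control peak was 974 bp away. Itga9 (33), the promoter of Pxn, paxillin (33) and Itgb5 (33) followed.

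Shares in lists with many broad peaks cannot be read against all genes alone. Of the 7274 genes with a shared broad peak, 11.9% had a region too. The same share was 10 of 31 genes (32.3%, interval 18.6 to 49.9) in the extracellular matrix list, 10 of 31 (32.3%) in the smooth muscle list and 8 of 18 (44.4%, 24.6 to 66.3) in the adhesion list. It was 5 of 25 (interval 8.86 to 39.1) in the TGF-beta and Notch list, 5 of 28 (17.9%, 7.88 to 35.6) in the stress list and 3 of 11 (27.3%, 9.75 to 56.6) in the receptor list, and these 3 intervals include 11.9%. These shares were not adjusted for the number of peaks per gene. The lists were chosen with earlier results of these data known, and no test was made on them. They also share genes, such as Itga8 in the smooth muscle and adhesion lists, Prdm16 in the smooth muscle and adipocyte lists, and Mylk, Myh11 and Myocd in the smooth muscle list and its markers, so their counts are not independent.

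Signalling and receptor genes also held regions, beside the same 7.68% of all genes. Of 33 TGF-beta and Notch genes, 5 (15.2%) had a region, namely Ldlrad4 (pileup 33), Notch2 (26), Tgfbr2 (23), Skil (20) and Smad6 (23, 97614 bp from the start site), the last named after its values were seen. Of 36 stress, p38 and AP-1 genes, 6 (16.7%) had one. They were led by Prkag2, a regulatory subunit of AMPK (33), Gadd45g (28), the promoter of Egr2 (29) and Dusp6, a phosphatase of ERK (26). The Gadd45g region lay 308903 bp from the start site, with a control peak 1543 bp away. Of 22 steroid and vasoactive receptor genes, 4 (18.2%) had one. The promoter of Agtr1a, the angiotensin II receptor, had a pileup of 21 and no control peak within 100 kb, the nearest being 100612 bp away. An intronic region 552377 bp upstream of Nr3c2, the mineralocorticoid receptor gene, had 19, with a control peak 3347 bp away, and the regions near Adra1b and Adra1d, which encode alpha-1 adrenergic receptors, had 17 and 13. None of 11 genes that the study names beside its RNA comparison of VEDS and control at P60 had a region, while 6 had a shared broad peak.

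Cell type marker lists were short, and their counts are given beside 7.68% of all genes with a region, with no order read from them. Smooth muscle markers had a region at 3 of 11 genes (Myh11, pileup 31, Mylk, 28, and Myocd, 11, the last in a window with an internal repeat), and 7 had a shared peak. Endothelial markers had 2 of 14, Erg with pileups of 34 and 33 and the promoter of Flt1 with 15. Adipocyte markers had 4 of 12, the promoters of Cidea (33), Lipe (21) and Pparg (10) and intronic regions nearest to Prdm16 (30 and 28), and 5 had a shared peak. The fibroblast list had 1 of 12 (the promoter of Twist2, 16) and the neural and Schwann list 1 of 12 (S100b, 16). The immune, striated muscle and epithelial lists had none of 16, 14 and 9, and 1, 1 and 2 of their genes had a shared broad peak. Among marker genes with a shared broad peak, a region was also held by 3 of 7 smooth muscle, 2 of 4 endothelial, 4 of 5 adipocyte and 1 of 5 fibroblast genes. The same share was 11.9% over all genes with a shared broad peak. No neural and Schwann marker had a shared broad peak. These counts were not adjusted for the number of peaks per gene. The aorta is surrounded by fat, and the part of adipocytes in these regions was not tested. In tissue libraries, fewer open cells and less accessibility per cell cannot be told apart.

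Consensus matches of AP-1 and MEF2 had overlapping intervals in regions and shared peaks of the same wide band of −log10 q away from start sites. Over all windows, AP-1 (TGAGTCA on either strand) matched in 204 region windows of 300 bp (11%, interval 9.61 to 12.4), in 9.36% of shared windows and in 12% of all unmasked VEDS male windows on chr1-19. Farther than 3 kb from a TSS the shares were 13.2% of 1038 regions (11.3 to 15.4) and 18.4% of 3283 shared peaks (17.1 to 19.8), and within 3 kb 8.12% and 4.97%. The MEF2 consensus matched in 112 region windows (6.01%, 5.02 to 7.18), 4.89% of shared and 6.01% of all windows. At a −log10 q over 5 and up to 20 and away from start sites, AP-1 matched in 13.6% of 789 regions (11.3 to 16.1) and 15.3% of 1260 shared peaks (13.4 to 17.4), and MEF2 in 8.37% (6.63 to 10.5) and 11.3% (9.64 to 13.1). Within that band, start sites included, 668 regions and 458 shared peaks had a −log10 q of up to 10. Over 15 there were 258 and 1092, so the sets were not matched for strength. A match is a run of letters and does not show that a factor was bound.

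CTCF matches showed the opposite order away from start sites. The core consensus of CTCF, the factor that marks chromatin loop boundaries, occurred in 42 of the 1038 distal regions (4.05%, interval 3.01 to 5.42) and in 66 of 3283 shared peaks (2.01%, 1.58 to 2.55). In the band over 5 and up to 20 it was in 39 of 789 (4.94%, 3.64 to 6.69) and 27 of 1260 (2.14%, 1.48 to 3.1), beside 6.82% of all unmasked distal windows of that band, so the regions lay between the shared broad peaks and the distal peaks of any width. The palindromic steroid receptor element, the form bound by the glucocorticoid, mineralocorticoid and androgen receptors, occurred in 8 distal regions (0.771%, 0.391 to 1.51) and 89 shared distal peaks (2.71%, 2.21 to 3.32). In that band the shares were 1.01% (0.515 to 1.99) and 2.14% (1.48 to 3.1), with intervals that overlapped. The SRF consensus (CArG box) matched in 4.44% and 4.6%, and the TEAD word CATTCC in 20.8% (18.1 to 23.8) and 25.4% (23.1 to 27.9).

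**Figure D5:**
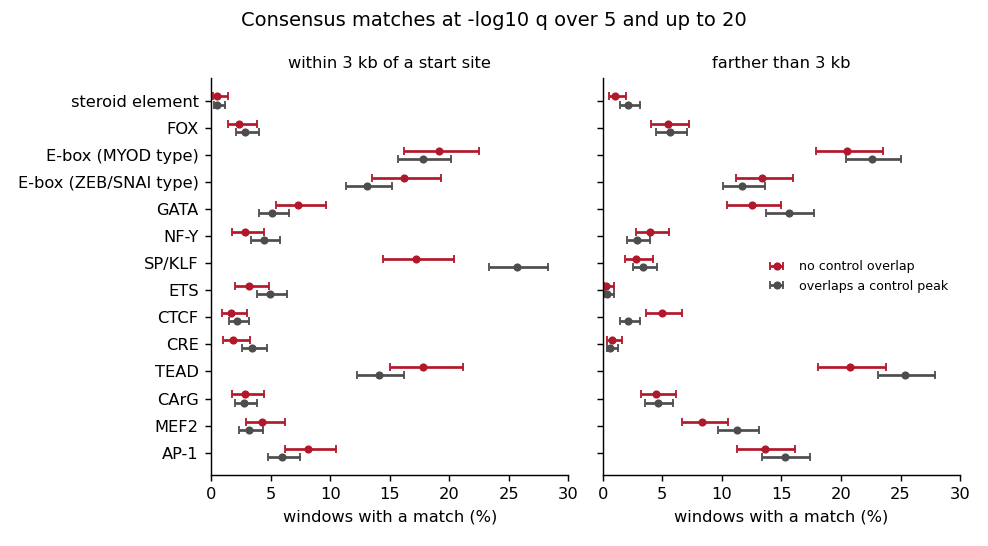
Share of 300-bp windows with a consensus match (x axis, percent, with 95% Wilson intervals) for 14 consensus sequences, in regions without control overlap (red) and shared peaks (grey) with a −log10 q over 5 and up to 20, within 3 kb of a TSS (left) and farther away (right). CTCF is higher in the distal regions (4.94% against 2.14%), SP/KLF is lower at promoters (17.2% against 25.7%), and the other pairs of intervals overlap. The sets are not matched for strength within the band.

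The regions with a match of highest −log10 q are shown with the bases around the match, which is in capitals, on the plus strand of GRCm38. For AP-1 these were the promoter of Bola1 (chr3:96197481-96197541), an intron of Pde7b, a cAMP phosphodiesterase gene (chr10:20409202-20409262), and an intergenic region nearest to Ptpdc1 (chr13:48566396-48566456).
Bola1 AP-1: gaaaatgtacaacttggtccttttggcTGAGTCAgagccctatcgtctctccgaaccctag
Pde7b AP-1: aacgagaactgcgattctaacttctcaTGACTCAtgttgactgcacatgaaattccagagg
Ptpdc1 AP-1: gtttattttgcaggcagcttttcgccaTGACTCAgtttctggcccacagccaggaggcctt
In the Pde7b region the match lay 5 bp from the summit and in the Bola1 region 108 bp. For the CArG box, an intronic region nearest to B3galt1 (chr2:67948601-67948660, pileup 39) is shown, and the region at the promoter of Atf7ip (pileup 41) had its match outside the peak.
B3galt1 CArG: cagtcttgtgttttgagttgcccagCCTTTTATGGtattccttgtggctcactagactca

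For MEF2, the regions of highest −log10 q with a match, near Pkd2l2 and Bambi, are named only. The next 3 lay near 1600014C23Rik (chr17:45812491-45812550), Ormdl3, a regulator of sphingolipid synthesis (chr11:98588963-98589022), and Foxi1 (chr11:34185823-34185882), with pileups of 45, 50 and 36.
1600014C23Rik MEF2: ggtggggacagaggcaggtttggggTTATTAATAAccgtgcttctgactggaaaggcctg
Ormdl3 MEF2: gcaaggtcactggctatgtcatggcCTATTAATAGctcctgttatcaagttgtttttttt
Foxi1 MEF2: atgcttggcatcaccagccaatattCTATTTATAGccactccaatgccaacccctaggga
For the steroid receptor element, the 3 regions of highest −log10 q lay near Lrrc52 (chr1:167524088-167524148), Klhl42 (chr6:147138462-147138522) and Shroom3 (chr5:92933241-92933301). Their −log10 q was 17.7, 17.4 and 14.4, and the nearest control peaks were 129349, 61534 and 35050 bp away.
Lrrc52 element: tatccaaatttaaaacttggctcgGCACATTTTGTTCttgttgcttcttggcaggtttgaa
Klhl42 element: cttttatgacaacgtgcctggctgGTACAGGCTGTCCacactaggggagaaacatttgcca
Shroom3 element: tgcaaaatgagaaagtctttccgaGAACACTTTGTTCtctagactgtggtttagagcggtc
The Klhl42 window also held an internal repeat, with a 12-base word occurring 5 times.

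For CTCF, chosen for display after its shares were seen, the strongest region with a match was nearest to Thap1 (chr8:26169306-26169365), with the match 5 bp from the summit, and another lay in the Igfbp7 region named above (chr5:77460534-77460593).
Thap1 CTCF: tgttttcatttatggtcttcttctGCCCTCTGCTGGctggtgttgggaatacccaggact
Igfbp7 CTCF: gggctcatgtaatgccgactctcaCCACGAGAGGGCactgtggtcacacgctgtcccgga

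The second VEDS library shared few of the regions. The VEDS female list overlapped 3 of the 1863 (0.161%, interval 0.0548 to 0.472), 314 of the shared peaks (3.12%, 2.8 to 3.48) and 1.02% of all VEDS male peaks on chr1-19. The 3 were the promoter of Zfp994 (−log10 q 34.0, pileup 36), which has a copy elsewhere, an intron of Rap1gap2, a GTPase-activating protein for RAP1 (19.7, pileup 27), and an intergenic region 34848 bp from the start of Ipo8, an importin gene (4.25, pileup 10). At a −log10 q over 20 and up to 40 the overlap was 1 of 230 regions (0.435%, 0.0768 to 2.42) and 73 of 3937 shared peaks (1.85%, 1.48 to 2.32), with intervals that overlapped. With 504 peaks and a median pileup of 6, the VEDS female list held few peaks in all, and the absence of a peak there or in the control lists was not read as closed chromatin.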

How the data were processed

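Nuclei of mouse aorta at P60 were profiled by ATAC-seq in 4 libraries. The authors called peaks with MACS2 on reads mapped to mm10 (GRCm38). Their methods describe handling of PCR duplicates by cell barcode, an offset for Tn5 insertion, and a blacklist filter. The aligner is not given in the sources used here. The deposited lists give for each peak a score, a fold enrichment (a ratio to the background estimated nearby), −log10 p and −log10 q, all as the authors' caller wrote them. The total reads per library were not used here, so the depth is known only through the pileups.

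Pileups were computed by solving for the integer count whose fold (with 1 added to count and background) and Poisson tail match the deposited pair of values. Annotation used GENCODE vM21 (GRCm38) with ChIPseeker's order of priority, and genes were assigned by the nearest protein-coding TSS. A base counted as masked if the RefSeq FASTA of GRCm38 printed it in lower case. Copies of summit windows were found with minimap2 2.31. Consensus sequences were searched on both strands. Software versions were scipy 1.17.1, pandas 2.3.3, numpy 2.4.6, pysam 0.24.0 and matplotlib 3.10.9 under Python 3.11.15, and the overlap, pileup and motif steps were tested on simulated data.

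The members, gene lists and motifs were chosen with earlier results of these data known. Named by rule were the 10 regions of highest −log10 q, the 5 widest, 3 on either side of each limit, those with a VEDS female peak, the genes with the most regions, up to 4 genes per list, 3 regions per motif and the fullest 1-Mb windows. Alternatives changed the width, masking, overlap and −log10 q limits, the TSS set, the windows and the consensus, and left out each control library. The bands of −log10 q and the repeat and copy measures were added after seeing the data. Some items under this rule are not reported here.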

Additional observations from a re-analysis of the deposited data

Results flagged for a closer look

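On chromosome X, which the selection left out, 24 of 206 broad and mostly unmasked VEDS male peaks overlapped no control peak (11.7%, interval 7.96 to 16.7), against 15.6% on chr1-19. The interval includes 15.6%. The VEDS list is male and nearly all control overlap came from the female list, so the number of X chromosomes differs between them, which was not adjusted for. The value is given because it comes from peaks outside the comparisons above.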

How the results depend on the processing

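Of the alternatives, a minimum width of 300 bp gave 4345 regions and 600 bp gave 363. Counting a control overlap of under 50% of the VEDS peak as none gave 5257, and a −log10 q of at least 10 gave 965. Leaving out 1 control library gave between 1877 and 11616 regions, the higher value without the female library. The share within 3 kb of a TSS was 41.4% at 300 bp, 40.8% with no masking limit, 55.7% with the looser overlap, 52.0% at a −log10 q of at least 10, 36.3% within 1 kb, 36.3% with coding start sites only, and between 44.3% and 63.5% without 1 control library. Median GC was 55.0%, 53.3% and 52.5% with the looser overlap, the −log10 q limit and 200-bp windows, and between 52.0% and 57.3% without 1 control library. AP-1 matched in 17.1% of whole peaks, 9.55% of 200-bp windows, 38.8% with a relaxed consensus, 13.2% of distal regions, and between 9.77% and 10.9% without 1 control library. MEF2 matched in 9.02%, 4.72%, 11.8% and 7.71% in the same order, and between 5.14% and 5.97% without 1 control library. Overlap with VEDS female peaks was 0.0% at 600 bp, 0.647% with the looser overlap, and between 0.16% and 2.14% without 1 control library. The other 58 values, among them those of 2 settings chosen after seeing the data (a −log10 q over 5 and up to 20, and no repeated or copied windows), moved by less than their counting error or, for counts, by less than 1.5 times. The cause of each shift was not tested. No paired analysis was possible because each sex has 1 library per genotype, which leaves no spread within a pair, and these values come from no test. Within males alone, VEDS against control gave the 11616 regions above. Whether a region without a control peak is closed in controls was not tested, and genotype, sex and depth cannot be told apart.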
